A study of Drosophila melanogaster with 6 samples.

Results

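The subject was the wild type baseline of a study of the embryonic salivary gland, namely the 3 Oregon R samples among the 6 samples of the series. They were taken by their titles, and no measured value entered the choice. Oregon R is a standard laboratory strain of Drosophila melanogaster, and no allele, transgene or treatment is given for it. The other 3 samples were sage mutants, with which the wild type was matched in age and handling, and they were not used. RNA came from whole embryos of stages 11 to 16 that were aged at 25 degrees C, passed through a COPAS biosorter, a flow sorter built for objects the size of embryos, and hybridised to 1 Affymetrix expression array per sample. The labels do not say whether the 3 samples were separate collections, so the spread between them may be technical. Each sample mixed all tissues and a range of stages, and stage or tissue cannot be resolved within it. For a tissue list, fewer cells of the tissue and less RNA per cell cannot be told apart.

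Stages 11 to 16 carry the embryo from the extended germ band to a nearly finished larva. The germ band retracts, the dorsal side closes, and the salivary glands, tracheae, muscles, gut and nerve cord take their shape. Late in this window the epidermis and tracheae begin to lay down cuticle, a layered coat of chitin fibres and secreted proteins. Ribosomal proteins, translation factors and mitochondrial enzymes are made in nearly every cell throughout.

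Every value below is a log2 signal of 1 probe set, so that a difference of 1 is 2-fold. Probe sets differ in how well they bind their targets and bright ones can approach the ceiling of the scanner scale, so ranks between genes are ranks of signal and not of molecules per embryo. Leaving out 183 control probe sets left 18769, of which 13647 named 1 gene, 402 named several and 4720 were unnamed in the annotation used here. The named ones covered 11982 genes, each given by its probe set with the highest wild type mean. The 3 arrays had medians of 5.94, 5.89 and 5.92 and maxima of 14.81, 14.88 and 14.80, and their number limits the precision. Replicates 1 and 3 resembled each other most, with a Pearson r of 0.994 across probe sets, against 0.979 for replicates 1 and 2 and 0.975 for replicates 2 and 3. Probe sets are not independent replicates, so these correlations describe the arrays only. Replicate 2 is therefore set apart from the others in what follows, and list levels are given with the SD over the 3 arrays.

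A reference line for low signal came from genes known for later life or the adult, such as photoreceptor, sperm, seminal fluid, larval glue, eggshell and chemoreceptor genes. The 174 measured ones had a median of 4.61, a range of 3.56 to 7.30 and a 95th percentile of 5.84, which is used as the line. Of all genes, 7864 (65.6%) had a mean above it, and 7534 were above it on every array. The line is a yardstick of these lists and not a detection call. All 112 measured odorant and gustatory receptor genes were at or below it, with a median of 4.52, and so were the 11 larval glue genes and the 6 phototransduction genes. These genes are among those that set the line, and the receptors make up most of them, so their place below it is no finding. The reference genes above it were 3 of 20 late testis genes, 1 of 12 seminal fluid genes and 5 of 13 eggshell and yolk genes. The testis gene bol, which encodes an RNA-binding protein of male meiosis, gave 8.04, 6.43 and 7.43 in replicates 1 to 3. The seminal fluid gene Acp95EF gave 7.02, 7.62 and 6.75. Replicate 2 was thus lowest for bol and highest for Acp95EF.

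The brightest named transcripts were those of the cytosolic ribosome. Of the 10 genes with the highest mean, 9 encode proteins of the ribosomal list, as do 21 of the first 25, 29 of the first 50 and 30 of the first 100. RpS18, of the small subunit, gave 14.76, 14.83 and 14.77 in replicates 1 to 3, and its mean was 14.79 ± 0.03 (SD, n = 3, as for all values with a ± below). RpLP1, an acidic protein of the large subunit stalk, gave 14.78, 14.81 and 14.76. The plot of the brightest genes shows how flat this top is. The 25th gene, RpS12, gave 14.15, 14.25 and 14.09, and 22 of the 24 neighbouring pairs in the order had arrays that overlapped. The order among them is therefore mostly not resolved, although only 1 gene below RpS18, RpLP1, reached its lowest array.

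**Figure D1:**
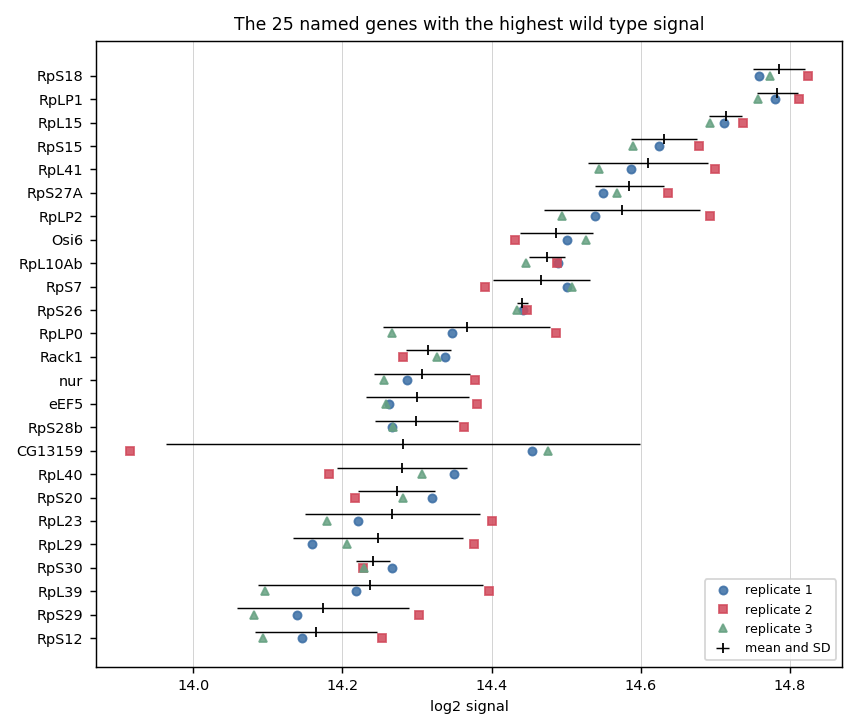
Log2 signal (x axis) of the 25 named genes with the highest wild type mean (y axis); points are the 3 arrays and the cross with its bar is the mean with the SD. The arrays of most genes lie close together, while CG13159 has replicate 2 at 13.91 beside 14.45 and 14.48.

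Of the first 25, 4 genes do not belong to the ribosomal list. Osi6, of the Osiris family of insect membrane proteins, gave 14.50, 14.43 and 14.53 and was the only other gene among the first 10. eEF5, the translation factor that carries hypusine, gave 14.26, 14.38 and 14.26. CG13159, of the salivary gland list, gave 14.45, 13.91 and 14.48, and nur gave 14.29, 14.38 and 14.26. CG13159 was lowest in replicate 2, eEF5 and nur were highest in it, and Osi6 had an SD of 0.05. Among genes 26 to 50 were Tctp, the translationally controlled tumour protein, at 13.99 ± 0.11, and the cognate chaperone Hsc70-4 at 13.85 ± 0.03. The actin-severing cofilin tsr was at 13.94 ± 0.10, the peptide precursor Nplp2 at 13.78 ± 0.23 and the ferritin subunit Fer1HCH at 13.64 ± 0.03. The unnamed probe sets matter for this ranking, because 34 of the 50 brightest probe sets and 55 of the 100 brightest had no gene name in the annotation used here.

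The level of a list is given as the median of its measured members, beside a median of 7.45 over all genes. The 42 measured cytosolic ribosomal proteins had a median of 14.08 ± 0.07. 9 of them were under 12, duplicates such as RpS19b and RpS10a among them, from 5.07 for RpS28-like to 11.83 for RpL7-like. Only 42 of 94 genes of this list had a probe set that named them alone. Duplicate ribosomal genes can share probes, so single values in this family are uncertain. Translation factors followed at 11.94 ± 0.05, with the helicase eIF4A at 13.97 ± 0.09 and the poly(A)-binding protein pAbp at 13.21 ± 0.10. The lowest measured factor was eEF1alpha2 at 8.52 ± 0.18. Splicing factors had a median of 11.78 ± 0.11, led by SF2 at 12.51 ± 0.22 and B52 at 12.47 ± 0.09.

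**Figure D2:**
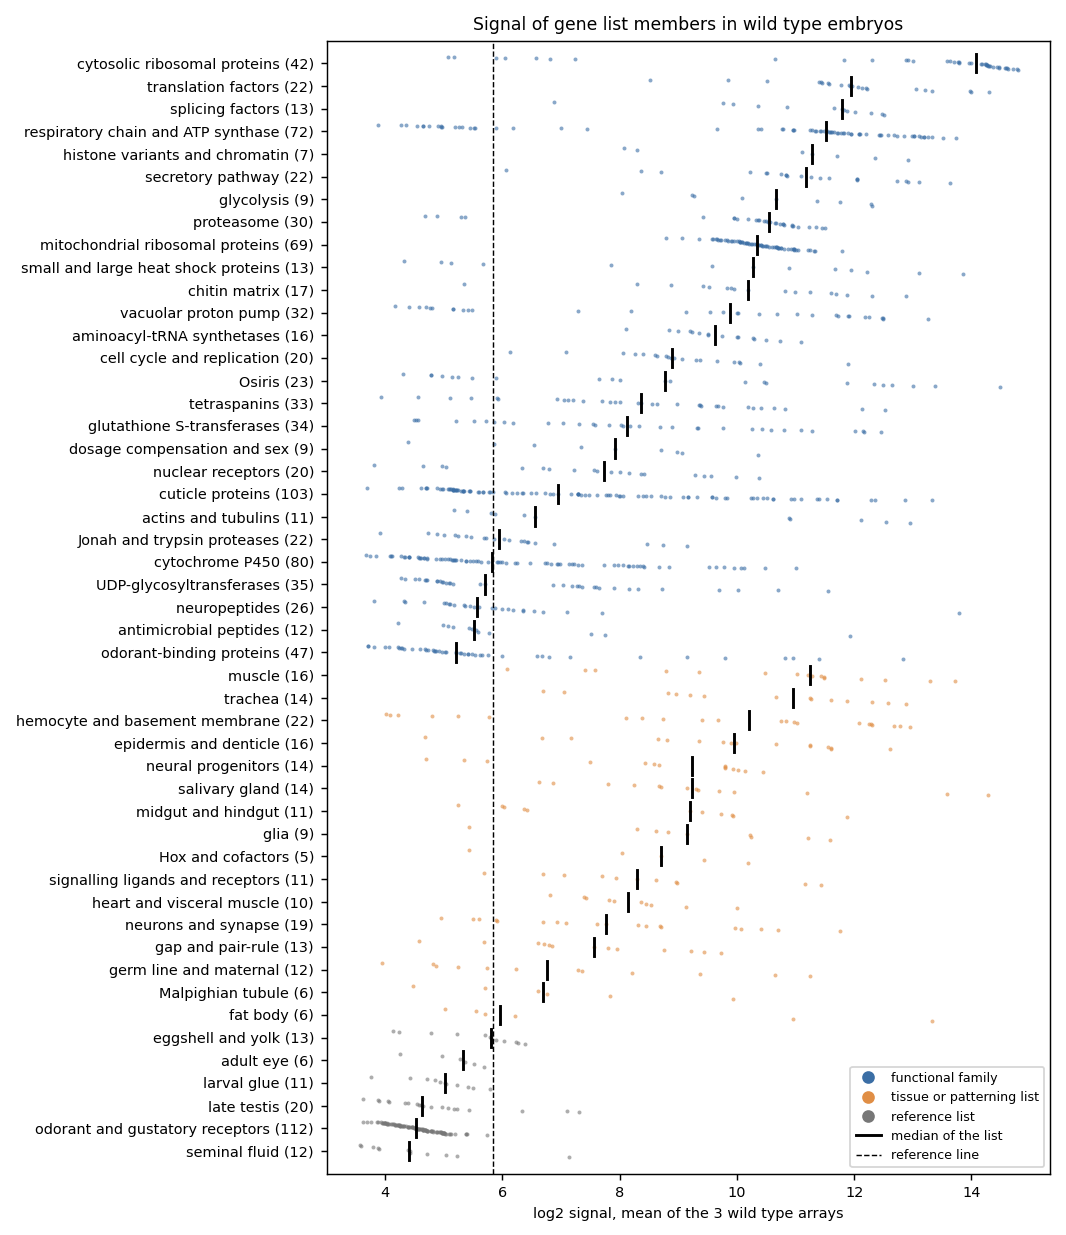
Mean log2 signal over the 3 wild type arrays (x axis) for each measured member of the gene lists (y axis, number of members in brackets), with list medians as bars and the reference line at 5.84 as a dashed line. Medians run from 14.08 for cytosolic ribosomal proteins to 4.41 for seminal fluid genes.

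Energy metabolism was bright as well. The 72 nuclear genes of the respiratory chain and ATP synthase had a median of 11.51 ± 0.21, and 55 were above the line. ND-MLRQ, of complex I, led them at 13.73 ± 0.18. The list was split, since 17 members were at or below the line. They included duplicates such as COX7AL at 3.87 ± 0.09 and ATPsynCF6L at 4.75 ± 0.07, beside their relatives COX7A at 12.20 ± 0.25 and ATPsynCF6 at 12.45 ± 0.18. The 69 mitochondrial ribosomal proteins formed a narrow band with a median of 10.34 ± 0.32, from 8.80 for mRpL45 to 11.79 for mRpS5. None of them was below the line. Proteasome subunits had a median of 10.54 ± 0.16, and the 12 measured core subunits ran from 9.95 to 11.50. Among the 4 members at or below the line was Rpt3R at 4.68 ± 0.26, a relative of the base subunit Rpt3, which was at 10.94 ± 0.37. The glycolytic enzymes had a median of 10.67 ± 0.35, led by aldolase (Ald1) at 12.31 ± 0.01 and enolase (Eno) at 12.28 ± 0.29, with the hexokinase gene Hex-A lowest at 8.05 ± 0.28.

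Secretory pathway genes had a median of 11.18 ± 0.18. The translocon subunits Sec61beta, Sec61alpha and Sec61gamma were at 13.63 ± 0.18, 12.92 ± 0.20 and 12.88 ± 0.30, and the endoplasmic reticulum chaperone Hsc70-3 was at 13.10 ± 0.18. All 22 measured members were above the line. The proton pump list was split by paralogue, with a median of 9.88 ± 0.18. Its brightest subunit, Vha16-1 of the membrane ring, was at 13.25 ± 0.26, and 11 of 32 members were at or below the line, among them Vha16-4 at 5.32 ± 0.16 and Vha14-2 at 5.15 ± 0.01. Cell cycle and replication genes had a median of 8.90 ± 0.17, with the mitotic cyclin gene CycB highest at 11.89 ± 0.55 and PCNA, the sliding clamp of replication, at 10.39 ± 0.16. All 20 were above the line. The histone variant His2Av was at 12.92 ± 0.22. Among heat shock proteins Hsc70-4 was brightest, Hsp26 gave 12.30, 10.92 and 12.62 and Hsp27 11.19, 10.34 and 11.14, while Hsp60C, a paralogue of the mitochondrial chaperonin, was at 4.32 ± 0.03.

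Muscle was the brightest tissue list, with a median of 11.25 ± 0.32 over 16 measured members, all above the line. Mlp60A, a LIM protein of muscle, gave 13.66, 13.71 and 13.78 in replicates 1 to 3. The essential light chain gene Mlc1 gave 13.30, 13.09 and 13.48 and tropomyosin 2 (Tm2) gave 12.68, 12.07 and 12.84. Mlp60A varied little between the arrays, whereas Mlc1 and Tm2 were lowest in replicate 2. The early mesoderm and myoblast factors were lower in signal, with twi at 7.42 ± 0.18 and nau, the fly MyoD, at 7.59 ± 0.29. The lowest member was Obsc, the obscurin gene, at 6.08 ± 0.91. The defining genes Mhc, Act57B and Mef2 had no probe set that named them alone, so they were not measured here. In the heart and visceral muscle list, with a median of 8.13 ± 0.10, the GATA factor gene pnr was at 9.13 ± 0.22 and Doc2, a T-box gene, was lowest at 6.81 ± 0.35.

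The neural progenitor and glial lists had higher medians than the list of neurons and synapses, without a test between lists. Neural progenitor genes had a median of 9.24 ± 0.26, with the Sox gene SoxN at 10.02 ± 0.64. Near it were esg, a Snail family gene, at 10.14 ± 0.68 and pros, whose homeodomain protein enters the daughter nucleus, at 9.93 ± 0.28. The proneural gene sc gave 5.76, 5.07 and 5.19 and was below the line on every array. Glial genes had a median of 9.14 ± 0.08. Gli, of the septate junction at the blood-brain barrier, was at 11.59 ± 0.25, and the glial master gene repo gave 10.21, 10.59 and 9.88. gcm gave 8.74, 8.63 and 8.49, while its paralogue gcm2 was at 5.43 ± 0.09. Genes of neurons and synapses had a median of 7.76 ± 0.23. The RNA-binding protein genes fne and elav were at 11.75 ± 0.40 and 10.06 ± 1.07. Genes of synaptic transmission were spread over the list. The vesicle chaperone gene Csp was at 10.40 ± 0.46, unc-13, which primes vesicles, at 8.70 ± 1.18 and Rab3 at 8.69 ± 0.58. The vesicle gene nSyb was at 7.76 ± 0.15 and the active zone gene brp at 5.90 ± 0.26. The lowest member was the sodium channel gene para, at 4.95.

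Genes of the tracheae and epidermis were bright. The tracheal list had a median of 10.96 ± 0.25, and all 14 members were above the line. Gasp, a chitin-binding protein of the tracheal lumen, gave 13.04, 12.49 and 13.13, and the chitin deacetylase genes serp and verm gave 12.45, 12.31 and 12.17 and 11.93, 11.80 and 11.93. Gasp and verm were lowest in replicate 2 and serp in replicate 3. The fibroblast growth factor receptor gene of tracheal cells, btl, was the lowest member at 6.69 ± 0.20, and its ligand bnl was at 7.06 ± 0.62. The epidermal list had a median of 9.94 ± 0.12, led by the zona pellucida genes mey at 12.62 ± 0.14 and dyl at 11.60 ± 0.04 and by the chitin synthase gene kkv at 11.60 ± 0.05. grh, the Grainy head factor of barrier epithelia, was at 10.67 ± 0.27. ple and Ddc, whose enzymes make the dopamine that tans cuticle, were low, ple at 4.64, 4.71 and 4.70 and Ddc at 7.37, 6.79 and 7.33. ple was below the line on every array.

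Cuticle genes ranged from the reference level to among the brightest genes. The 103 measured structural cuticle protein genes had a median of 6.95 ± 0.45, with 63 above the line and 40 at or below it. Cpr51A, of the CPR family with a chitin-binding domain, gave 13.51, 12.91 and 13.55, while Cpr50Ca, the lowest, was at 3.69 ± 0.07. The Tweedle genes, an insect family of cuticle proteins, stood higher than the rest of the list. Their 24 measured members had a median of 9.90, against 6.24 for the other 79. TwdlF gave 13.06, 12.11 and 13.45, TwdlG 12.50, 11.61 and 12.96 and TwdlM 12.61, 11.60 and 12.65. In all 3 of these Tweedle genes replicate 2 was the lowest array. The Osiris genes, a clustered insect family, were split into bright and dim members around a median of 8.77 ± 0.23. Osi15 gave 13.46, 13.06 and 13.61, Osi20 12.96, 12.75 and 13.29 and Osi19 12.50, 12.49 and 12.93, beside 7 of 23 members at or below the line, of which Osi22 was lowest at 4.30 ± 0.05. Genes of the chitin matrix had a median of 10.18 ± 0.11.

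The salivary gland list had a median of 9.23 ± 0.32, and all 14 measured members were above the line. It was led by CG13159 and by CG14756, at 13.65, 13.71 and 13.37, the only 2 members over 12. Both were placed on the list with their low signal in the sage mutants of this series already known. They were followed by Papss, which makes the sulphate donor, at 11.20 ± 0.18. The transcription factor genes of the gland were lower, fkh at 8.67 ± 0.24, sage at 8.25 ± 0.34 and sens at 6.87 ± 0.23, with eyg lowest at 6.63 ± 0.17. In the order of all genes by signal, sage had a percentile of 60.1 and CG13159 of 99.9. pip, which encodes sulphotransferases by alternative splicing, had 10 probe sets, whose means ran from 9.95 to 4.86. Several members, such as Scr, fog and hkb, act in other tissues as well.

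Hemocyte and basement membrane genes had a median of 10.21 ± 0.19. The matrix genes were at the top, with the laminin genes LanB2, LanA and LanB1 at 12.96 ± 0.33, 12.67 ± 1.01 and 12.30 ± 0.39 and the collagen IV genes Col4a1 and vkg at 12.28 ± 0.24 and 12.25 ± 0.35. The prophenoloxidase genes of crystal cells, PPO1 and PPO2, gave 11.00, 11.11 and 10.97 and 10.82, 10.96 and 10.72. Other blood cell genes were divided. Pxn at 9.68 ± 0.10, srp at 9.40 ± 0.63, ush at 8.38 ± 0.55 and crq at 8.11 ± 0.22 were above the line. At or below it were 6 of the 22 list members, among them Hml at 5.24 ± 0.16, eater at 4.01 ± 0.02 and NimC1 at 5.77 ± 0.24. In the fat body list apolpp, the lipophorin precursor, gave 13.93, 12.27 and 13.79 and Mtp, which loads it with lipid, gave 11.19, 10.81 and 10.85, while the other 4 measured members, Sr-CI, Lsp2, Fbp1 and Fbp2, were between 5.02 and 6.21. In both, replicate 2 was the lowest array. apolpp had a shift there, against the mean of the other arrays, of −1.59 and Mtp of −0.21. The midgut and hindgut list had a median of 9.20 ± 0.44, led by mex1 at 11.88 ± 0.31. Next came bowl at 9.93 ± 0.35 and the GATA factor gene GATAe at 9.91 ± 0.40, which differed by less than their SDs. Digestive proteases were mostly near the line, and 22 Jonah and trypsin genes had a median of 5.94 ± 0.08 with Jon65Aiii highest at 9.14 ± 0.54. The 6 measured genes of the Malpighian tubule list had a median of 6.68 ± 0.43.

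Patterning genes kept signal above the line in most cases. Gap and pair-rule genes, which act in the blastoderm and again later in the nervous system and other organs, had a median of 7.55 ± 0.33. hry, the hairy gene, was highest at 9.74 ± 0.72 and kni was at 9.43 ± 0.42, whereas ftz gave 4.84, 4.33 and 4.54 and prd 5.95, 5.45 and 5.66. ftz was below the line on every array. Of 5 measured Hox genes and cofactors, tsh was highest at 10.19 ± 0.30, Antp was at 9.43 ± 0.57 and pb, of the mouthparts, was lowest at 5.43 ± 0.11. Ubx, abd-A and Abd-B had no probe set that named them alone, so they were not measured here. Of the signalling genes, spi, the main ligand of the epidermal growth factor receptor, was at 11.44 ± 0.12, and tkv, a receptor for Dpp, was at 11.16 ± 0.46. dpp was at 7.93 ± 0.55 and hh at 7.69 ± 0.40, while ptc, the Hedgehog receptor gene, was the only member at or below the line, at 5.68 ± 0.20. Genes of the germ line and maternal supply had a median of 6.76 ± 0.36. Of the 12 measured members 7 were above the line. me31B, an RNA helicase of cytoplasmic granules, was highest at 11.25 ± 0.35, and aub was at 7.29 ± 0.04 and piwi at 6.23 ± 0.43. bcd gave 7.23, 7.82 and 9.56 and AGO3 gave 6.62, 7.15 and 8.28, both highest in replicate 3. At or below the line were osk and vas, among others, at 4.82 ± 0.05 and 4.86 ± 0.08.

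Large families of detoxification and chemosensory proteins had medians near the reference line with a few bright members. Of 80 cytochrome P450 genes 40 were above the line, and the median was 5.83 ± 0.15. Cyp6d5 was highest at 11.01 ± 0.18, followed by Cyp18a1, which inactivates ecdysone, at 10.48 ± 0.05. Of 35 UDP-glycosyltransferase genes 17 were above it, led by Ugt35D1 at 11.55 ± 0.30. Glutathione S-transferases stood higher, at 8.12 ± 0.13, led by GstD1 at 12.45 ± 0.20. Of 47 odorant-binding protein genes 12 were above the line, but Obp99a gave 12.66, 13.29 and 12.58 and Obp99c gave 11.22, 11.92 and 11.08. The family held 4 members over 10. Of 26 neuropeptide genes 11 were above the line. Nplp2 gave 13.76, 14.03 and 13.56, and the next, Mip, was at 7.70 ± 0.11. Of 12 antimicrobial peptide genes 3 were above it, Drsl5 at 11.93 ± 0.50, Mtk at 7.75 ± 0.70 and Drsl4 at 7.51 ± 0.31. Drs, the Drosomycin gene itself, was at 5.78 ± 0.10.

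Nuclear receptors, ligand-gated transcription factors, had a median of 7.73 ± 0.26, with Hr78 highest at 10.38 ± 0.20, EcR and usp, which form the ecdysone receptor, at 8.16 ± 0.03 and 8.42 ± 0.21, and dsf lowest at 3.81 ± 0.07. Among tetraspanins, membrane proteins that span the bilayer repeatedly, Tsp42Ee was at 12.53 ± 0.12 and 29 of 33 were above the line. Cytoskeletal genes were divided, with betaTub56D at 12.94 ± 0.15 and betaTub60D, a tubulin of muscle and other mesoderm, at 12.53 ± 0.25, while the testis tubulin betaTub85D was at 5.17 ± 0.22. Of the genes of sex determination and dosage compensation, Sxl was highest at 10.35 ± 0.09 and dsx was at 4.39 ± 0.11. The lists overlap in members, and neighbouring medians in the order of the 16 tissue lists were closer than the larger of their SDs in 7 of 15 pairs, and in 12 of 26 pairs for the 27 families.

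A gene's level also depended on which probe set was read. For 1094 genes with several, the median gap between the brightest and the dimmest was 1.67, and 492 genes had a gap of at least 2. Mlp60A is an example, with means of 13.72, 6.09 and 4.96 for its 3 probe sets. A low signal in the lists above is therefore a low signal of the probe sets present and not evidence that the gene was silent.

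The spread between the arrays depended on the level. The median SD over the 3 arrays was 0.10 for probe sets with a mean under 5, 0.30 between 8 and 10, and 0.10 at 13 and above. The 10 genes with the largest SD were Cht6, CG11584, Sdb, Atf3, Nf1, cac, SK, bt, trx and Imp, with SDs from 1.71 to 2.10. Cht6, a chitinase family gene, gave 9.67, 6.50 and 10.46 in replicates 1 to 3. Replicate 2 was the lowest array for all 10 of these genes. What follows describes that array, which was singled out with its values known, so no test is given.

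In replicate 2, many genes gave a slightly higher signal and a smaller number gave a much lower one. For each probe set, the shift of an array is its log2 signal minus the mean of the other arrays. Replicate 2 was at least 2-fold below the others at 908 probe sets (4.84%) and at least 2-fold above them at 83 (0.442%). The second count was 223 against replicate 3 alone and 63 against replicate 1 alone. Replicate 1 was 2-fold below at 34 (0.181%) and above at 183 (0.975%), and replicate 3 below at 17 (0.0906%) and above at 319 (1.7%). By gene, replicate 2 was 2-fold below for 668 (5.58%) and above for 74 (0.618%). The corresponding counts were 33 (0.275%) and 108 (0.901%) for replicate 1, and 13 (0.108%) and 258 (2.15%) for replicate 3. The median shift of replicate 2 over all genes was nevertheless positive, at 0.08. It was the highest array for 50.4% of genes and the lowest for 32.8%, and for probe sets the highest at 50.6% and the lowest at 30.8%. A low tail in 1 array also lowers the mean that the other arrays are set against, so part of the counts above for replicates 1 and 3 is the same difference seen from the other side.

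**Figure D3:**
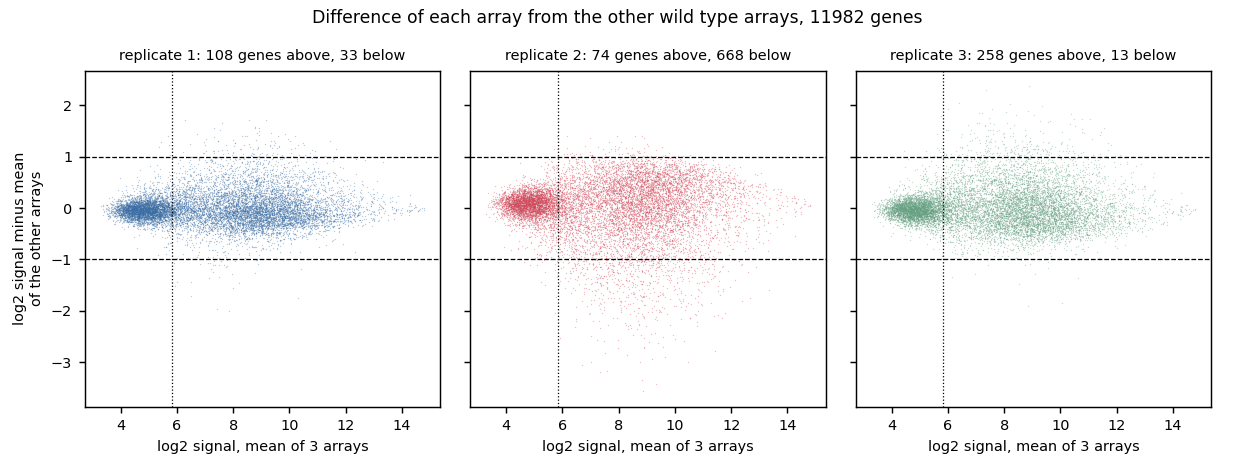
Shift of each array (y axis, log2 signal minus the mean of the other arrays) against the mean log2 signal (x axis), 1 point per gene, with dashed lines at 2-fold and a dotted line at 5.84. The middle panel has a tail of 668 genes below the lower line, against 33 and 13 in the panels of replicates 1 and 3.

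Among genes whose replicates 1 and 3 lay within 0.5 of each other and whose highest array reached 6, the 15 most below in replicate 2 were mostly long genes of varied function. This choice used the shift itself and the closeness of replicates 1 and 3, so both are descriptions. CG11584 gave 10.30, 7.04 and 10.65 in replicates 1 to 3, a shift of −3.44. Atf3, a stress-responsive leucine zipper factor, gave 8.37, 5.20 and 8.40, so replicate 2 fell below the reference line while the others were well above it. Nf1, the neurofibromin gene, gave 8.70, 5.47 and 8.61, and the calcium channel gene cac gave 7.66, 4.66 and 7.77. The potassium channel gene SK gave 7.91, 5.02 and 8.13, and trx, a Trithorax group histone methyltransferase gene, gave 9.82, 6.78 and 9.72. bt, which encodes the giant muscle protein projectin, gave 11.32, 8.47 and 11.62. Imp, an RNA-binding protein gene, had a shift of −2.95, and its other bright probe sets were also lower in replicate 2, with shifts of −2.07 and −2.48. The cuticle gene Cpr62Bc gave 10.44, 7.70 and 10.77 and the chitin deacetylase gene Cda5 gave 9.24, 6.40 and 9.27. The others were Sdb, CG33978, CG31626, mask and Glut4EF, with shifts from −3.36 to −2.72. The median span of these 15 genes on the genome was 23.5 kb, and 12 spanned over 10 kb. Over all 11893 genes with a span the median was 2.26 kb, and 1733 spanned over 10 kb.

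The 15 genes most above in replicate 2 differed by less and were mostly short. CG13640 gave 7.56, 8.89 and 7.38, a shift of 1.41, and Anp, a peptide of the male ejaculatory duct, gave 5.49, 6.73 and 5.17. Gclm, the modifier subunit of the enzyme that starts glutathione synthesis, gave 7.78, 8.95 and 7.53, and the histone chaperone gene asf1 gave 7.72, 8.80 and 7.51. wac, which encodes a subunit of the augmin complex of the spindle, gave 8.02, 9.03 and 7.72. All 15 were chosen by the shift, with replicates 1 and 3 close, so replicate 2 was bound to be their highest array. The remaining 10 were CG30154, Orct2, CG32856, CG16782, CG11438, CG13912, CG31922, CG4593, CG13616 and l(3)80Fg, with shifts from 1.39 to 1.16. The median span was 0.922 kb, with 14 of 15 under 5 kb. Most genes are this short, since 8824 of the 11893 genes with a span were under 5 kb. The exception, l(3)80Fg, spans 216 kb.

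By list, cuticle, nerve and muscle genes were among those lower in replicate 2 and genes of mitochondrial translation were higher. Of 103 cuticle genes 37 were 2-fold below and none above, against 5.58% and 0.618% of all genes, with a median shift of −0.61 beside 0.08 over all genes. Replicate 2 was the lowest array for 23 of 24 Tweedle genes, whose median shift was −1.07. TwdlD gave 11.84, 9.99 and 12.34 and TwdlC gave 8.49, 6.50 and 8.80. Of 19 genes of neurons and synapses 7 were 2-fold below, with a median shift of −0.79. Appl, the fly amyloid precursor-like gene, gave 10.57, 8.90 and 10.44 and the synaptic gene unc-13 gave 9.47, 7.35 and 9.29, and both were lowest in replicate 2. elav gave 10.83, 10.53 and 8.84, with replicate 3 and not replicate 2 the lowest. Of 16 muscle genes 6 were 2-fold below, with a median shift of −0.58. The titin-like gene sls gave 9.84, 7.14 and 9.38 and Act87E gave 12.37, 11.19 and 12.81, whereas Mp20 gave 11.36, 11.52 and 11.58. Of 17 chitin matrix genes 6 were 2-fold below, with a median shift of −0.35, which was −0.14 against replicate 1 alone and −0.56 against replicate 3 alone. The Hox, epidermal, neural progenitor and gap and pair-rule lists had median shifts of −0.47, −0.43, −0.41 and −0.36. Replicate 2 was the lowest array for 11 of 13 gap and pair-rule genes, against 32.8% of all genes.

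**Figure D4:**
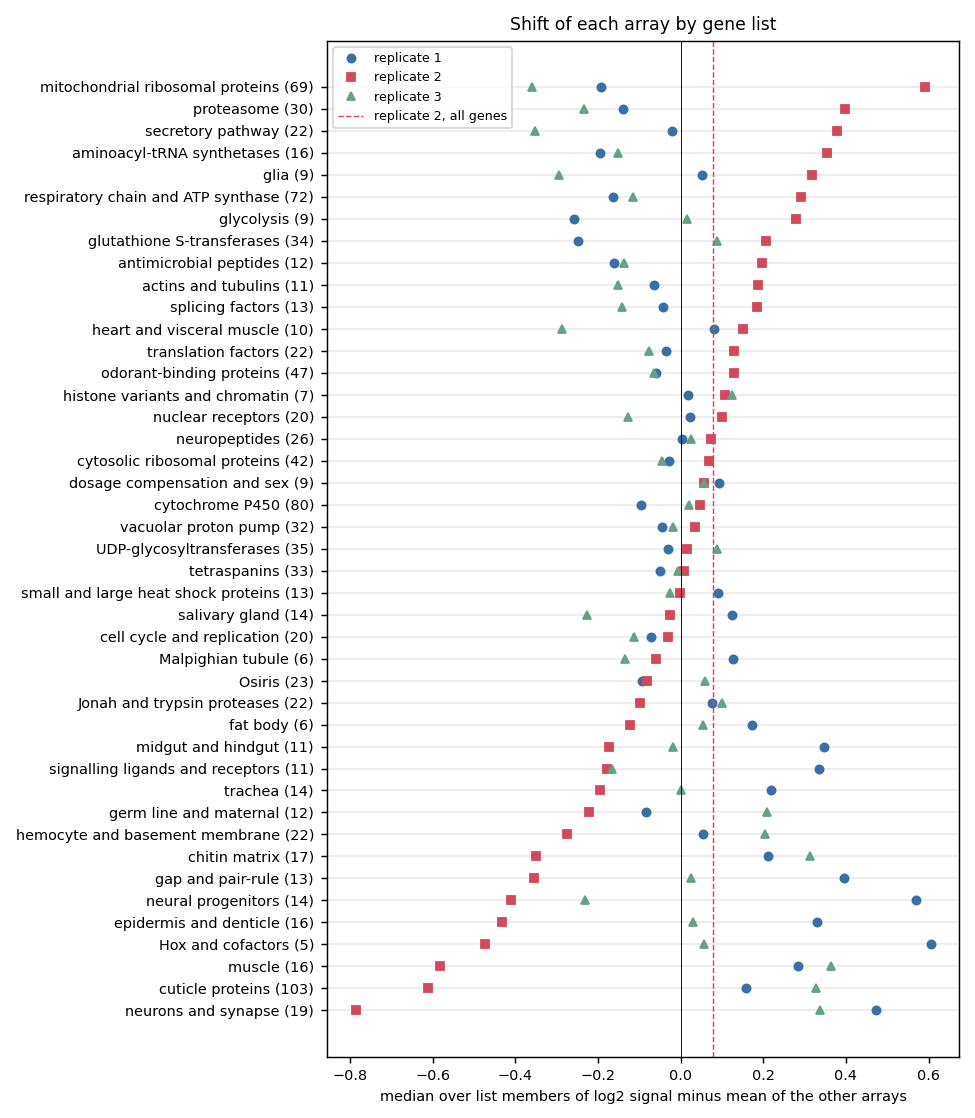
Median over list members of each array's log2 signal minus the mean of the other arrays (x axis) for the tissue and family lists (y axis, number of measured members in brackets); the dashed line is the median of replicate 2 over all genes, 0.08. Replicate 2 runs from −0.79 for neurons and synapses to 0.59 for mitochondrial ribosomal proteins.

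At the other end, replicate 2 was the highest array for 64 of 69 mitochondrial ribosomal protein genes, with a median shift of 0.59 and none 2-fold below. mRpL17 gave 10.69, 11.53 and 10.52 and mRpL36 gave 10.58, 11.41 and 10.44. The large and small subunits had median shifts of 0.57 and 0.60. Proteasome, secretory pathway, aminoacyl-tRNA synthetase and respiratory chain genes had median shifts of 0.40, 0.38, 0.35 and 0.29. Glial genes had a median shift of 0.32, or 0.11 against replicate 1 alone, although moody, a receptor of the blood-brain barrier, gave 9.61, 8.25 and 9.56. The cytosolic ribosomal list, at 0.07, and the salivary gland list, at −0.03, had no member 2-fold apart in either direction. Nor had the mitochondrial ribosomal, secretory pathway, aminoacyl-tRNA synthetase and respiratory chain lists. Of all genes 5.58% were 2-fold below and 0.618% above, so nothing is read from their absence among 14 salivary gland genes.

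The shift of replicate 2 went with the length of a gene on the genome. Across 7847 genes above the reference line with a span in RefSeq, its Pearson r with log10 of the span was −0.42. For the difference between replicates 1 and 3 the r was 0.04. All these genes share the same 3 arrays, so both are descriptions. Genes spanning under 1 kb had a median shift of 0.37 and those of 2 to 5 kb 0.09. Genes of 10 to 20 kb had −0.28 and the 189 genes over 50 kb −0.46. The share 2-fold below went from 2.35% at 1 to 2 kb to 24.3% over 50 kb. It was 5.50% under 1 kb, higher than in the next class. The span includes introns, and the length of the mature transcript was not used here.

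**Figure D5:**
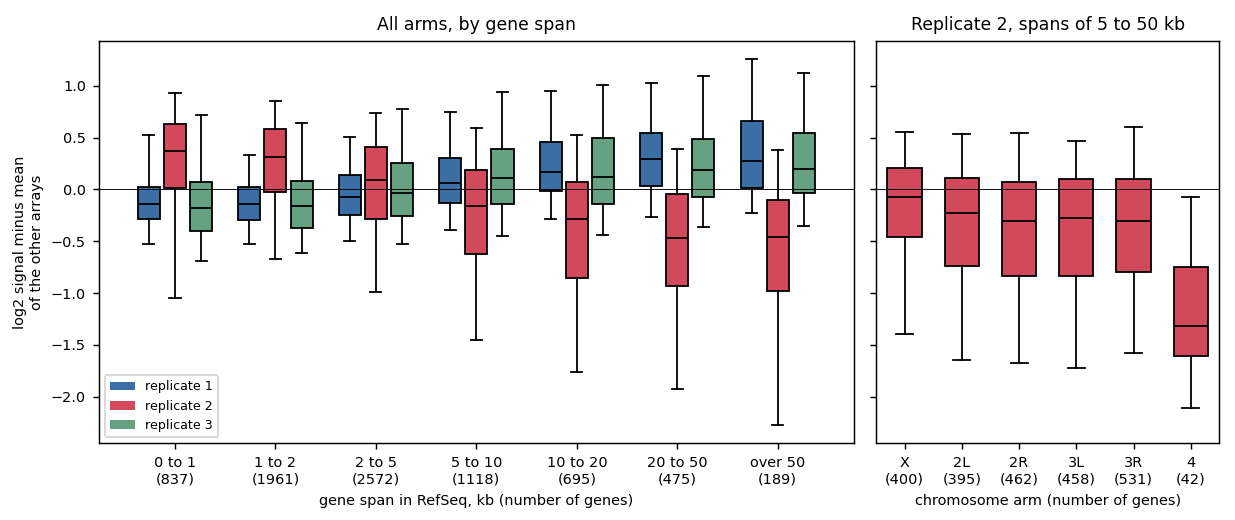
Shift of each array (y axis, log2 signal minus the mean of the other arrays) by gene span (left panel, kb) and, for replicate 2 and spans of 5 to 50 kb, by chromosome arm (right panel), over genes above the reference line; boxes run from the 25th to the 75th percentile with the median as a line, and whiskers from the 5th to the 95th. Replicate 2 goes from 0.37 for the shortest to −0.46 for the longest genes, and chromosome 4 has a median of −1.32.

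Cuticle genes were lower in replicate 2 although they are short. The 61 cuticle list genes above the line with a span under 5 kb had a median shift of −1.05, and 36 of them were 2-fold below. Among all genes above the line with such a span the median shift was 0.22 and 3.99% were 2-fold below. Neuronal genes above the line all spanned 5 kb or more, with a median shift of −0.89 against −0.27 for all such genes. That comparison is not matched for span, since the measured neuronal genes had a median span of 26.8 kb. All genes above the line of 20 to 50 kb had a median shift of −0.46. The 67 mitochondrial ribosomal genes with short spans had 0.60.

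Neighbourhoods with a low replicate 2 were chosen after their values were seen. The runs were taken over genes above the reference line only, so dimmer genes between them were skipped. On arm 3L, 20 such genes in a row from CG13069 to CG13059 had a median shift of −1.20, with 11 of them 2-fold below and replicate 2 lowest for 17. Over all genes 5.58% were 2-fold below and replicate 2 was lowest for 32.8%, and nothing is read from the run's counts, since it was picked for its low shift. None belongs to the cuticle list, but whether they act in cuticle was not tested. Their median span was 0.642 kb, and CG13049 gave 11.17, 9.36 and 11.74 in replicates 1 to 3. CG13059 gave 10.76, 8.92 and 10.95, while CG13064, in the same run, gave 9.59, 10.25 and 8.87 and was highest in replicate 2. On arm 3R, a run of 20 such genes from Ald1 to TwdlQ that held 10 cuticle list genes had a median shift of −0.76. Over whole arms the median shift of the windows lay between 0.04 and 0.14.

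Chromosome 4, the small and largely heterochromatic fly chromosome, stood apart in replicate 2, which was also noticed after its values were seen. Of its 65 measured genes 28 (43.1%) were 2-fold below, with a median shift of −0.91. On the other arms the share ran from 4% on X to 7.25% on 3L. Genes of chromosome 4 are longer, with a median span of 10.6 kb. Among genes above the line spanning 5 to 50 kb, the 42 on chromosome 4 had a median shift of −1.32 and 26 were 2-fold below, against −0.24 and 16.3% for 2246 genes elsewhere. Under 5 kb, the 11 genes on chromosome 4 had a median shift of 0.19, beside 0.22 elsewhere. Taf3, a subunit of the general factor TFIID, gave 11.35, 9.11 and 11.14, and ci, the Hedgehog pathway factor, gave 10.92, 9.36 and 10.57. apolpp also lies on this chromosome, as do bt and unc-13, while dpr7 gave 9.60, 9.93 and 9.40 and was highest in replicate 2. For the lists, leaving chromosome 4 out changed the median shift of the muscle genes above the line from −0.58 to −0.50 and that of the neuronal genes to −0.79.

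Further probe sets of the same genes were mostly low in replicate 2 as well. Of the 668 genes 2-fold below, 140 had several probe sets. Their 94 dimmer probe sets above the reference line had a median shift of −1.12, with replicate 2 lowest at 82 and 2-fold below at 54. Over all probe sets it was lowest at 30.8% and 2-fold below at 4.84%. The genes were picked by their brightest probe set on the same arrays, so these counts are descriptions and not independent support. Nf1 gave shifts of −1.40 and −2.47 at its dimmer probe sets, and mask gave −1.88. The 5′ minus 3′ difference, a measure of RNA integrity and labelling, was read from 5 control designs, of which actin and GAPDH each account for a pair. It had a mean of −1.88, −1.76 and −1.89 in replicates 1 to 3. In 4 of the designs replicate 2 was the least negative, and in the second GAPDH design, at −2.50, −2.68 and −2.97, replicate 1 was. The polyadenylated spike-ins had mean signals of 6.93, 7.30 and 6.16, highest in replicate 2 and lowest in replicate 3. Their part in the shift of replicate 2 was not tested.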

How the data were processed

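The deposited series table holds 1 log2 signal per probe set and array, and 183 of its 18952 rows, the control probe sets, were left out of levels and ranks. Per the submitters' processing notes the authors used RMA and Partek, with versions and settings not given in the sources used here. The RMA method subtracts background, gives all arrays the same distribution and summarises probes on the log2 scale, which evens out differences between whole arrays before they can be seen. Per the labels' protocols a 3' transcription kit was used for labelling. Such kits start at the poly(A) tail, and signal leans to the 3' end. Gene names came from the platform annotation, updated through RefSeq of Release 6 plus ISO1 MT, where 11893 of 11982 genes were found. Spans, arms and the order of genes came from the same table, and no coordinates are given.

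Levels, SDs and shifts were computed with pandas 2.3.3 and numpy 2.4.6. No p-value was computed, because a single group of 3 arrays was described. The genes named are the 25 brightest, up to 6 highest members and the lowest of each list, the 15 most below and 15 most above in replicate 2, and the 10 with the largest SD. Other list members, chromosome 4 and the runs of neighbouring genes were picked with their values in view. The 49 lists and all members were chosen with earlier results of these data known. Alternatives were quantile normalization, centring, a mean of at least 6, other summaries per gene and leaving out arrays. The 2-fold rule was run on simulated data for replicate 2, in which 200 of 18769 probe sets were shifted. Shifts were placed only where the mean was over 6, and the noise came from the gap between replicates 1 and 3. It recovered all 50 shifted by −3, all 50 shifted by 3, and 92% of those shifted by 1.5 in either direction. Of 18569 unchanged probe sets 107 passed it. All planted shifts were larger than the limit, so the recovery was largely set in advance. It says nothing of dim probe sets, and the noise was not that of replicate 2.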

Additional observations from a re-analysis of the deposited data

How the results depend on the processing

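The number of probe sets at which replicate 2 was at least 2-fold below the others was 908 and lay between 668 and 1012 under every alternative run, of which the lowest counts 1 probe set per gene. The number at least 2-fold above was 83, and 130 after quantile normalization, 107 after centring on array medians and 77 with a mean of at least 6. Leaving out replicate 1 or 3 gave 63 to 223. The cause was not tested. Of the 50 brightest genes, 45 were shared with a ranking by the average over a gene's probe sets and at least 48 under the other alternatives. The median shifts of the cuticle, muscle, neuronal and mitochondrial ribosomal lists kept their sign and moved by less than the spread between arrays. Among all 49 lists, 18 list levels and 34 list shifts moved by more than that, counting each list once per setting, and 276 and 303 did not. The spread includes replicate 2 itself, so a list with a large shift has a wide limit. The cuticle shift, for example, went from −0.61 to −1.05 among genes above the reference line and stayed within its limit. Restricting lists to genes above the reference line, with or without chromosome 4, was chosen after seeing the data. No paired analysis was possible because only 1 group of samples was used. Depth is not defined for arrays. Signals near the reference line bound what can be said of dim genes, and signals near the ceiling compress differences among the brightest.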
